A study of Rattus norvegicus with 12 samples.

Results

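Cell cycle and DNA replication genes were followed in primary rat hepatocytes, the main parenchymal cells of the liver, after exposure to the synthetic glucocorticoid dexamethasone. The set holds 36 genes given by symbol: subunits of the replicative helicase, enzymes of DNA synthesis, cyclins and their kinases, mitotic regulators, cyclin-dependent kinase inhibitors and the transcription factor E2f1. Probes were matched by the gene symbol in the array files, with 2 older names (Stk6 for Aurka, Cdc2a for Cdk1). All 36 genes had a probe and all 36 were measured by the names in the files, among 26535 genes in all. Of the 36, 26 were above background on all 12 arrays. The probe names of Tk1, Rrm2 and Ccnd3 are uncertain, as described below.

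The cells came from Sprague-Dawley rats aged 11 weeks, by collagenase perfusion and low-speed centrifugation of the liver, with no further purification named in the labels. They were plated in medium with serum, kept in serum-free medium, and then given dexamethasone at 100 nM (the labels write "nm") or its vehicle, 0.01% ethanol, for 6 h. There were 12 samples, with 3 for each sex on vehicle and 3 for each sex on dexamethasone. Sex was taken from the sample titles, because a separate field of the labels reads male for all 12 samples. The labels do not say that replicates were separate animals or cultures. A p-value here reflects how far replicates varied within their groups, with the spread shared over all groups in the fit. That variation may be technical and cannot be taken as variation between animals.

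In the adult liver most hepatocytes rest outside the cell cycle and re-enter it after injury or loss of tissue. D-type cyclins with Cdk4 and Cdk6, then E-type cyclins with Cdk2, release E2F factors from the retinoblastoma protein, and E2F factors switch on the genes of DNA replication. Genes of the later phases, such as cyclin B, Cdk1 and the mitotic kinases, are switched on afterwards through promoter elements that include CCAAT boxes and the cell cycle homology region (CHR). Glucocorticoids are known to hold back proliferation in several cell types.

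The promoters of the genes that passed a test below are shown first, because the elements named above can be looked for in them. RefSeq promoter windows of build GRCr8, which span 250 bases before to 50 bases after the start of a gene, were given for 27 of the 36 genes. All motifs were searched on both strands. The E2F-type site was taken as TTCCCGC or its variant forms, of which the first is TTCGCGC, the second is TTGCCGC and the last is TTGGCGC. The CHR element was taken as TTTGAA or as the variant form TTCGAA, and the third motif was CCAAT. Of the 10 genes that passed in any comparison, 7 had a window and 6 of these held a motif. Their windows follow, 5′ to 3′ on the gene's strand, with motifs in capitals. Overlapping motifs give a longer run of capitals. The windows lie at chr9:30733697-30733996 (minus strand) for Mcm3, chr19:13488563-13488862 (plus) for Mcm5, chr13:42404303-42404602 (minus) for Mcm6, chr12:22163129-22163428 (minus) for Mcm7, chr4:97236259-97236558 (plus) for Mad2l1 and chr2:33655176-33655475 (minus) for Ccnb1.
Mcm3: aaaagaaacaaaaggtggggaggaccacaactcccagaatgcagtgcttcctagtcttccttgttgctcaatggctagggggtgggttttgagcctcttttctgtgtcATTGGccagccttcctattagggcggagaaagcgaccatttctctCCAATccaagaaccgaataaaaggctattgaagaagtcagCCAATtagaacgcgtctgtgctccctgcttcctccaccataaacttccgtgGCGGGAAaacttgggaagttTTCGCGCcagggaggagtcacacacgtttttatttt
Mcm5: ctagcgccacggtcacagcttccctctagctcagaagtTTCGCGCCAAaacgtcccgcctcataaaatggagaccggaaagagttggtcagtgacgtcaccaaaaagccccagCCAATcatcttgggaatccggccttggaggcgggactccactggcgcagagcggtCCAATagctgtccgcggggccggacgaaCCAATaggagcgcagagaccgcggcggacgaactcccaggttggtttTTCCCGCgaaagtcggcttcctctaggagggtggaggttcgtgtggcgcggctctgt
Mcm6: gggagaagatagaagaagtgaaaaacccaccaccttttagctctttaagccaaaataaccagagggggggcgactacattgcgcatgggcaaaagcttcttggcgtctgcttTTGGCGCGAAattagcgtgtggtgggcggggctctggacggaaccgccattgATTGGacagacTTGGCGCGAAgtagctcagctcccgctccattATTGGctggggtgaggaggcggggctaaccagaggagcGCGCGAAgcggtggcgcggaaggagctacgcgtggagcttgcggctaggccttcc
Mcm7: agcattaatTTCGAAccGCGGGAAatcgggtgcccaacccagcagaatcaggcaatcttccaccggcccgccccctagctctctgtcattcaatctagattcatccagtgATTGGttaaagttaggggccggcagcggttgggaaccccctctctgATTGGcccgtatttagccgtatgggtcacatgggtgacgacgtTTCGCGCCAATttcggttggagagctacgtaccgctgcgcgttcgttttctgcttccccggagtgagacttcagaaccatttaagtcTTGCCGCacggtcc
Mad2l1: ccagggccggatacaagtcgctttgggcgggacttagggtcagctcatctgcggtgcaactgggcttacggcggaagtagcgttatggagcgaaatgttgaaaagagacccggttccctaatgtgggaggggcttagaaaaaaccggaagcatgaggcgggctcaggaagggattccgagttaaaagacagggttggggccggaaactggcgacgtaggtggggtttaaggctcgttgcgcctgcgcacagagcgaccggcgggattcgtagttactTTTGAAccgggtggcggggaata
Ccnb1: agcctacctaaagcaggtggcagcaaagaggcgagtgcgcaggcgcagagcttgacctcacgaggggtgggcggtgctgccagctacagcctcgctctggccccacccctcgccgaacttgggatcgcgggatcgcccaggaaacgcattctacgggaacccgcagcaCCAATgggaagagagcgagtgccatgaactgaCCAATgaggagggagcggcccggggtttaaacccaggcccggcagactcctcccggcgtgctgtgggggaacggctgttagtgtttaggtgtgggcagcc
The 4 helicase promoters each held between 2 and 5 E2F-type matches and 2 or 3 CCAAT matches. The promoter of Ccnb1, which encodes cyclin B1, held 2 CCAAT matches and no E2F-type match, and that of the spindle checkpoint gene Mad2l1 held a single CHR match. Over the 27 windows of the set, 12 (44.4%) held an E2F-type match, against 10.0% of all 27457 windows. A CHR match was present in 12 (44.4%) against 19.5%, and CCAAT in 17 (63.0%) against 37.7%. All 3 kinds were present in 5 windows (18.5%) against 0.594%. The window of Tk1 held none of them. These are letter matches, given as a description with no test of binding.

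The values below are log2 levels of the processed signal relative to the 75th percentile of each array, so a negative level lies below that percentile. A level describes 1 probe and was not compared with the level of another. On build rn3, per the file headers, the probes lie at chr9:19535990-19536049 for Mcm3, chr19:13997808-13997867 for Mcm5, chr13:41066191-41066250 for Mcm6 and chr12:17598191-17598893 for Mcm7. Those of Aurkb (chr10:55815016-55815157), Mad2l1 (chr4:96629282-96629341), Ccna2 (chr2:123008021-123008080), Ccnb1 (chr2:31495178-31495417) and Cdk6 (chr4:27571169-27571228) are also placed by the files. What part of each gene these intervals cover is not analysed here. The probe named Tk1 lies at chr3:108928833-108928892, while RefSeq places Tk1 on chromosome 10. The probes named Rrm2 lie on chromosome 19 (RefSeq 6) and that named Ccnd3 on chromosome 8 (RefSeq 9). These 3 names are those of the files and are uncertain.

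Array quality differed by slide. The arrays lie on 3 slides of 4: slide 1 held male vehicle 1 to 3 and male dexamethasone 1, slide 2 held male dexamethasone 2 and 3 with female vehicle 1 and 2, and slide 3 held female vehicle 3 with female dexamethasone 1 to 3. Male dexamethasone 1 is thus the only link between slide 1 and the others, and female vehicle 3 the only one between slides 2 and 3. In a fit with slide as a block, the male response therefore rests on male dexamethasone 1 and the female response on female vehicle 3. The sex differences of that fit pass through these single arrays. Between 45.8% and 66.5% of probes were well above background on slide 1, against 72.4% to 80.4% on the other 8 arrays. Among the cell cycle genes, Rrm2 and Ccnb2 were above background on 0 of 3 male vehicle arrays. Mcm4, Mcm5, Mki67, Aurkb and Ccna2 were above it on 1 of 3, and Tk1, Bub1b and Ccne2 on 2 of 3. In the other groups the only gene below background on an array was Ccnb2, which was above it on 2 of 3 male dexamethasone arrays. The hepatocyte markers, among them Alb, were above background on all arrays for 10 of 10 genes. Markers of other liver cells were present too, with 9 of 10 measured Kupffer cell markers above background on all male vehicle arrays and 10 of 10 on all female vehicle arrays. In such cultures fewer cells of a type and less RNA per cell cannot be told apart.

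**Figure D1:**
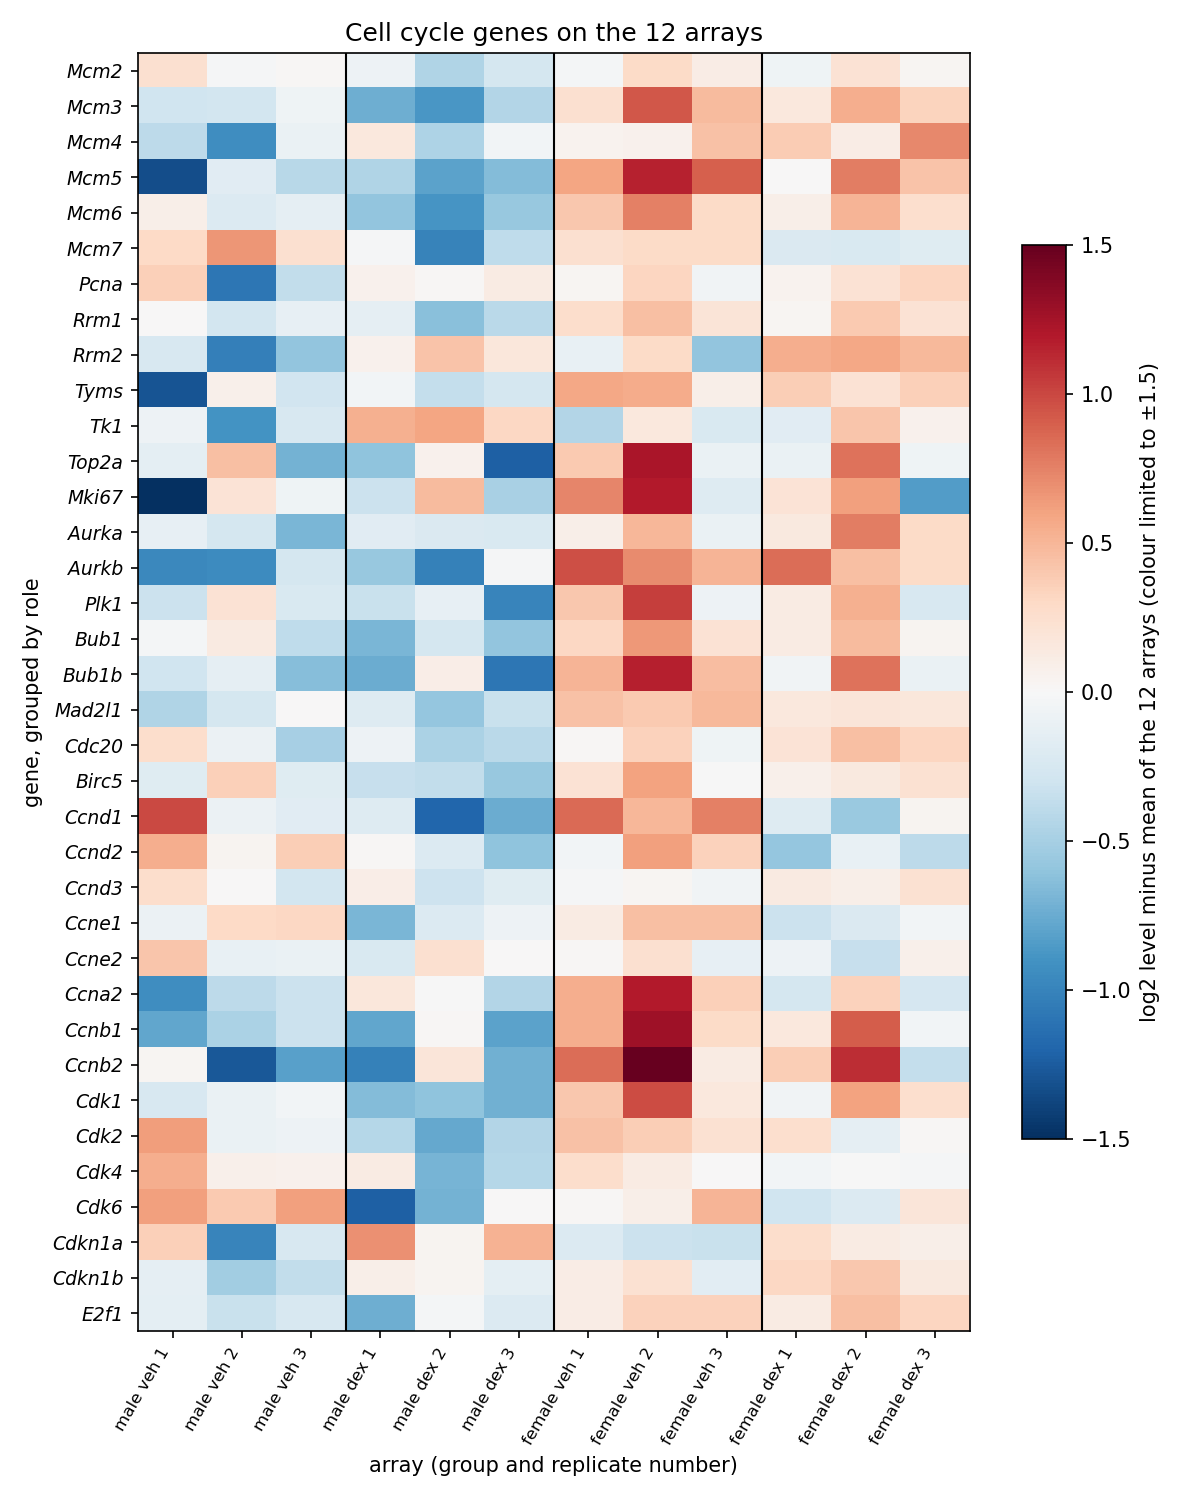
Log2 level of each of the 36 genes on each of the 12 arrays, as the difference from the gene's mean over the arrays (colour, limited to ±1.5), with genes in rows by role and arrays in columns by group and replicate number. Of the 36 genes, 21 are highest on replicate 2 in both female groups.

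The first question was how the set responded to dexamethasone in males. In male samples 1 gene of the set rose and 2 fell. The nucleotide salvage enzyme gene Tk1, read by a probe whose name is uncertain, rose 1.84-fold. The helicase subunit gene Mcm7 and the kinase gene Cdk6, which partners D-type cyclins, fell by 0.87 and 1.19 log2 units. These 3 are 8.33% of the set, against 10.0% of all genes tested (5.19% called higher and 4.85% lower), so the share called was near that of the array as a whole. The median difference over the set was -0.17, with 22 of 36 genes below 0, beside a median of -0.07 over all genes. Arrays of the male groups did not overlap for 10 lower genes (27.8% of the set, against 14.4% of all genes) and 2 higher genes (5.56%, against 11.3%). The balance of rises and falls rested on single arrays and on the scaling. Without male vehicle 1, 4 genes rose and 0 fell (Tk1 with Pcna, Rrm2 and Cdkn1a), where 9.02% of all genes were called. With median centring or normexp background correction 0 rose and 4 fell (12% and 15% of all genes called). With the replicate number as a block 0 rose and 5 fell (12.7% of all genes called). With that block within each sex, a fit added after the data had been seen, 2 rose and 6 fell (15.7%). The plot of responses shows both sexes side by side.

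**Figure D2:**
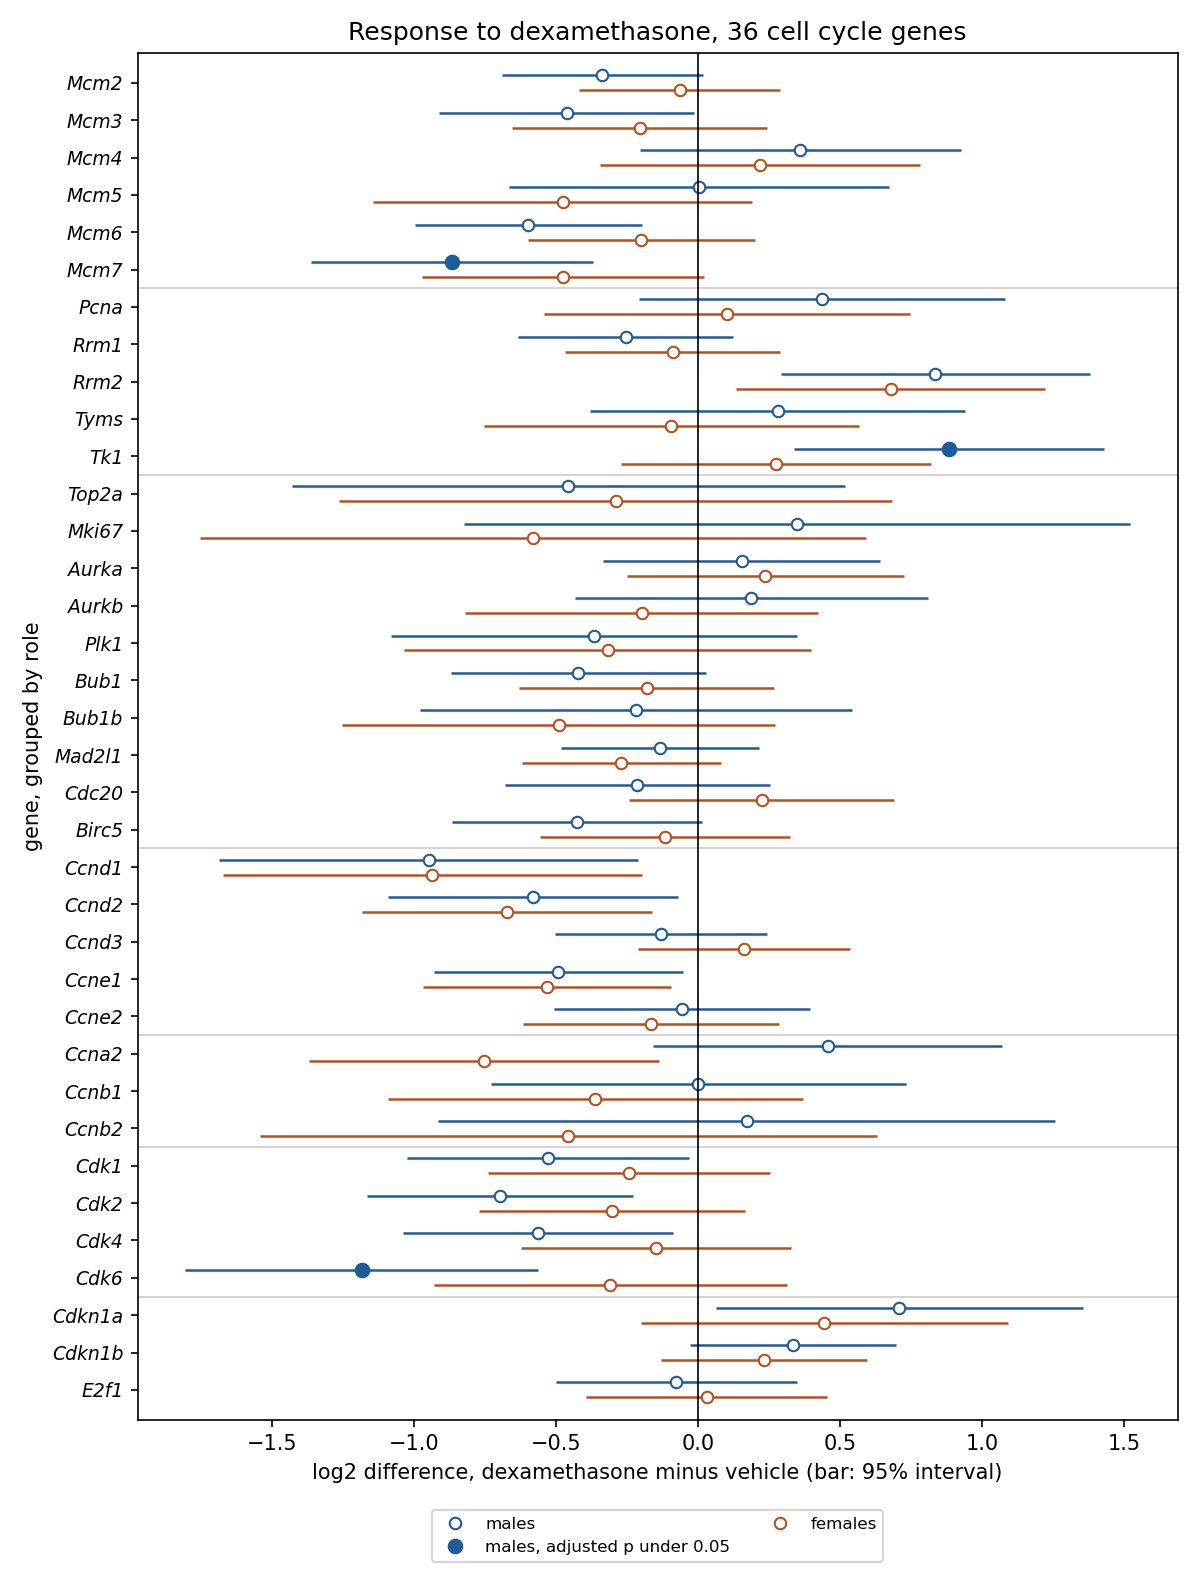
Log2 difference between dexamethasone and vehicle for each of the 36 genes (rows, by role) in males (blue) and females (orange), with 95% intervals of the limma fit as bars; filled points passed an adjusted p of 0.05. Filled points are Mcm7, Tk1 and Cdk6 in males, and no female point is filled.

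Among the 6 subunits of the MCM helicase, the ring that unwinds DNA at replication forks, Mcm7 fell in males. Its level was 1.03, 1.40 and 0.98 on the 3 male vehicle arrays and 0.71, -0.26 and 0.36 on the 3 male dexamethasone arrays. The groups did not overlap, and the spread was widest in male dexamethasone. The difference was -0.87 ± 0.22 (SE of the limma fit; adjusted p = 0.036). A fit with slide as a block, which rests on male dexamethasone 1 here, gave -0.42. Under normexp background correction the difference was -0.37 (adjusted p = 0.119). The call was also lost when any of 9 arrays was left out (adjusted p up to 0.0936), among them male vehicle 1 and 2, male dexamethasone 2 and 3 and all female arrays but female vehicle 2.

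Mcm6 was at -0.18, -0.47 and -0.39 in male vehicle and at -0.85, -1.15 and -0.83 in male dexamethasone. These arrays did not overlap either, but the difference of -0.60 ± 0.18 did not pass (adjusted p = 0.0617). Mcm3 was at 0.49, 0.51 and 0.73 in vehicle and at 0.06, -0.08 and 0.36 with dexamethasone, again without overlap (-0.46 ± 0.20, adjusted p = 0.174). Mcm2, the remaining subunit whose male groups did not overlap, was at 0.45, 0.20 and 0.23 in vehicle and 0.14, -0.23 and -0.05 with dexamethasone (-0.34 ± 0.16, adjusted p = 0.204). A second probe of Mcm2 gave 0.23 in the other direction. Mcm4 (0.36 ± 0.26) and Mcm5 (0.00 ± 0.30) overlapped between the groups, and both were above background on 1 of 3 male vehicle arrays.

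Of the 5 genes of DNA synthesis, Tk1 encodes thymidine kinase, which salvages thymidine. Its probe read -2.60, -3.41 and -2.76 in male vehicle, where 2 of 3 arrays were above background, and -1.99, -1.92 and -2.21 in male dexamethasone. Every dexamethasone array was above every vehicle array. The difference was 0.88 ± 0.25 (adjusted p = 0.0472). Under normexp background correction it was 0.21 (adjusted p = 0.486), and the call was lost in 9 of the 12 fits that each left out an array (adjusted p up to 0.135), the exceptions being male vehicle 1 and 3 and female vehicle 2. In the fit with slide as a block, so on male dexamethasone 1 alone, the value was 0.93.

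Rrm2 encodes the small subunit of ribonucleotide reductase, the enzyme that makes deoxynucleotides. It read -3.68, -4.46 and -4.03 in male vehicle, not well above background on any of these arrays, and -3.37, -3.01 and -3.27 in male dexamethasone. Without overlap, this was at least 1.34-fold higher with dexamethasone and missed the threshold (adjusted p = 0.0564). A bound of this kind sets the measured group against the dim one. Each dim array counts at its own value or, if higher, at its lowest signal of any probe above background. A dim probe can exceed that lowest signal, so the bound is not strict. The second probe named Rrm2 differed by 0.14, with the same male vehicle arrays below background. The sliding clamp gene Pcna (0.44 ± 0.29), the large reductase subunit gene Rrm1 (-0.26 ± 0.17) and the thymidylate synthase gene Tyms (0.28 ± 0.30) overlapped between the male groups.

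Among cyclins and their kinases, Cdk6 had the largest difference of the set in males. It was at -0.27, -0.50 and -0.28 in male vehicle and at -2.12, -1.60 and -0.89 in male dexamethasone. The lowest vehicle array was above the highest dexamethasone array, and the dexamethasone arrays were widely spread. The difference was -1.19 ± 0.28 (adjusted p = 0.0259), a 2.28-fold fall. With slide as a block it was -1.77, a value that rests on male dexamethasone 1, the lowest of these arrays. Without male vehicle 1, male dexamethasone 1 or male dexamethasone 2 the call was lost (adjusted p 0.0588 to 0.0786), and without male dexamethasone 1 the difference was -0.89.

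Ccnd1, which encodes cyclin D1, the growth-factor-responsive partner of Cdk4 and Cdk6, was at 1.85, 0.77 and 0.69 in male vehicle and at 0.67, -0.33 and 0.12 with dexamethasone. The groups lay next to each other without overlap, since male dexamethasone 1 was just below male vehicle 3. The difference of -0.95 ± 0.33 did not pass (adjusted p = 0.0979). A second probe of Ccnd1 gave -1.19. Ccnd2, encoding cyclin D2, was at -2.44, -2.95 and -2.62 in vehicle and at -2.97, -3.19 and -3.58 with dexamethasone. It did not overlap or pass (-0.58 ± 0.23, adjusted p = 0.138).

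Cdk2, the kinase of the S phase cyclins, was at 1.08, 0.35 and 0.37 in male vehicle and 0.01, -0.32 and 0.01 with dexamethasone. All dexamethasone arrays were lower (-0.70 ± 0.21, adjusted p = 0.0619), and a second probe gave -0.79. Cdk1, which drives entry into mitosis, was at -0.07, 0.07 and 0.13 in vehicle and -0.48, -0.43 and -0.56 with dexamethasone (-0.53 ± 0.23, adjusted p = 0.161). Its groups were apart with a small spread on either side, while the standard error is that of the fit to all 12 arrays. Birc5, encoding survivin of the chromosomal passenger complex, was at -1.53, -0.98 and -1.53 in vehicle and -1.69, -1.71 and -1.91 with dexamethasone (-0.43 ± 0.20, adjusted p = 0.199). Ccne1, encoding cyclin E1 (-0.49 ± 0.20, adjusted p = 0.142), and Cdk4 (-0.56 ± 0.22, adjusted p = 0.123) had lower means in dexamethasone with overlapping arrays.

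Same-numbered male arrays deviated together, so fits with the replicate number as a block are given here. The first used the same 3 blocks for both sexes, although same-numbered arrays of the sexes correlated at only 0.11, 0.02 and 0.04 in vehicle. In that fit 5 genes of the set passed in males, all lower: Mcm7 (adjusted p = 0.0453), Cdk6 (0.0105), Ccnd1 (0.0377), Ccne1 (0.0452) and Cdk2 (0.0311). Tk1 did not pass in it (adjusted p = 0.0606). The share of all genes called was 12.7%, against 10.0% without the block. With the replicate number as a block within each sex, a fit added after the data had been seen, 8 genes passed in males. Of these 2 were higher and 6 lower, where 15.7% of all genes were called. There Tk1 passed (adjusted p = 0.0342) and Mcm7 did not (0.063). Only Cdk6 passed with slide as a block, 1 gene of the set, where 1.78% of all genes were called. Among measures that moved with treatment in males, well-measured probes made up 45.8% to 55.7% of the array in vehicle and 66.5% to 80.4% with dexamethasone, and 0 of 10 stellate and 0 of 10 Kupffer cell markers passed. Of the other lists, 1 hepatocyte marker rose and 1 fell among 10, 1 endothelial marker rose and 1 fell among 8, 2 of 8 cholangiocyte markers rose, and 1 of 6 lymphocyte markers fell. The summed hepatocyte signal, in units of the array's 75th percentile, was 1648 to 2006 in vehicle and 1307 to 1490 with dexamethasone, and the endothelial sum 8.59 to 11.4 and 5.25 to 7.93, both without overlap. The cholangiocyte sum was 3.39 to 13.7 and 7.66 to 9.73, and the lymphocyte sum 0.818 to 1.17 and 0.768 to 1.00. The part of array quality and of these cell types in the response was not tested.

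The 10 genes of mitosis did not pass in males. Their median difference was -0.22, and 7 of them had lower means with dexamethasone. The 3 with higher means were Mki67, a marker of proliferating cells (0.35 ± 0.53), and the kinase genes Aurka (0.15 ± 0.22) and Aurkb (0.19 ± 0.28). Bub1 of the spindle checkpoint was at -0.42 ± 0.20, with an interval of -0.87 to 0.03, and Top2a, which untangles replicated DNA, at -0.46 ± 0.44, with an interval of -1.43 to 0.52. The mitotic kinase gene Plk1 was at -0.37 ± 0.32, Bub1b at -0.22 ± 0.35 and Cdc20 at -0.21 ± 0.21. The 3 cyclin genes of S phase and mitosis did not pass either, at 0.46 ± 0.28 for Ccna2, 0.00 ± 0.33 for Ccnb1 and 0.17 ± 0.49 for Ccnb2. Nor did Ccnd3 (-0.13 ± 0.17) or Ccne2 (-0.06 ± 0.20). The inhibitor genes Cdkn1a (p21) and Cdkn1b (p27, 0.34 ± 0.16), which hold cyclin-dependent kinases inactive, had higher means with dexamethasone. For Cdkn1a the difference was 0.71 ± 0.29 (adjusted p = 0.151), with arrays that overlapped because male vehicle 1 was at 4.20 against 3.88 in male dexamethasone 2. Without male vehicle 1 it was 1.04 (adjusted p = 0.032). E2f1 was close to 0 (-0.08 ± 0.19), while a second probe, below background on all male vehicle arrays, gave 0.75.

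In female samples 0 of the 36 genes passed in the limma fit across all genes, where 4.13% of all genes did. The median difference over the set was -0.20, with 26 of 36 genes below 0, beside a median of -0.02 over all genes. Arrays did not overlap for 7 lower genes (19.4%, against 17.0% of all genes) and 3 higher genes (8.33%, against 16.8%). With slide as a block 0 genes passed again (1.13% of all genes), the median of the set was 0.01 and 19 of 36 genes were above 0. With the replicate number as a block 0 passed as well (5.83% of all genes). Stellate markers moved with treatment here: all 10 had lower means with dexamethasone (median -0.67), 1 fell (Pdgfrb, -1.13 ± 0.28, adjusted p = 0.0462), and the summed signal, in units of the array's 75th percentile, was 209 to 264 in vehicle and 175 to 244 with dexamethasone. Hepatocyte, endothelial and cholangiocyte markers each had 1 rise and 0 falls, and the sums overlapped between the groups. Their part was not tested.

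Of the 5 genes of G1 cyclins, Ccnd1, Ccnd2 and Ccne1 were lower without overlap in females, and none of them passed. Ccne2 overlapped (-0.17 ± 0.20) and Ccnd3 was higher without overlap. Ccnd1 was at 1.71, 1.35 and 1.61 in female vehicle and at 0.67, 0.30 and 0.90 with dexamethasone. All 3 dexamethasone arrays were lower, by -0.94 ± 0.33 (adjusted p = 0.161). Its second probe gave -0.73. With the replicate number within each sex as a block, a fit added after the data had been seen, Ccnd1 passed in females (adjusted p = 0.027) and in males (0.0167). It also passed in females without the 4 arrays of slide 1 (adjusted p = 0.0336), which leaves the difference itself as it was and changes the shared spread.

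Ccnd2 was at -3.03, -2.37 and -2.64 in female vehicle and at -3.57, -3.10 and -3.38 with dexamethasone. It did not overlap (-0.67 ± 0.23, adjusted p = 0.146). Ccne1 was at 1.53, 1.86 and 1.85 in vehicle and at 1.09, 1.19 and 1.37 with dexamethasone (-0.53 ± 0.20, adjusted p = 0.181). Its second probe gave 0.33 in the other direction. Cyclin A2 binds Cdk2 and Cdk1 in S phase and G2. Its gene, Ccna2, was at -2.26, -1.62 and -2.45 in vehicle and at -3.07, -2.46 and -3.06 with dexamethasone. Its highest dexamethasone array lay just below its lowest vehicle array (-0.76 ± 0.28, adjusted p = 0.177), and a second probe, above background on 2 of 3 of these dexamethasone arrays, gave -1.01.

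Mcm7 was tightly grouped in females, at 0.97, 1.02 and 1.02 in vehicle and 0.52, 0.51 and 0.55 with dexamethasone. The gap between the groups was wide against their own spread, with SDs of 0.03 and 0.02. The fit, which shares 1 spread over all 4 groups, gave -0.48 ± 0.22 (adjusted p = 0.315), while a fit to the female arrays alone called it (adjusted p = 0.0269). Mad2l1 was at -0.13, -0.17 and -0.09 in vehicle and -0.41, -0.39 and -0.40 with dexamethasone (-0.27 ± 0.16, adjusted p = 0.454). Cdk4, the main kinase of D-type cyclins in many cells, was at 3.73, 3.59 and 3.47 in vehicle and 3.43, 3.47 and 3.45 with dexamethasone, so that the nearest arrays of the groups almost met (-0.15 ± 0.22). The arrays of the other 26 genes overlapped in females, with differences from -0.58 (Mki67) to 0.27 (Tk1). Mcm5 was at -0.48 ± 0.30. Of the mitotic genes, Bub1b was at -0.49 ± 0.35 and Plk1 at -0.32 ± 0.32, while Aurka (0.24 ± 0.22) and Cdc20 (0.22 ± 0.21) had higher means with dexamethasone. Cdk6, which fell in males, was at -0.31 ± 0.28 in females, and Tk1, which rose in males, at 0.27 ± 0.25.

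The 3 higher genes without overlap in females were Rrm2, Ccnd3 and Cdkn1a. Rrm2 was at -3.55, -3.16 and -4.03 in vehicle and at -2.90, -2.86 and -2.95 with dexamethasone. The dexamethasone arrays were closely grouped above all vehicle arrays (0.68 ± 0.25, adjusted p = 0.169), but the second probe of that name gave -0.38. Cdkn1a was at 3.64, 3.52 and 3.51 in vehicle and at 4.11, 3.97 and 3.93 with dexamethasone (0.45 ± 0.29, adjusted p = 0.526), and its second probe gave 0.42. In the fit to the female arrays alone it passed (adjusted p = 0.0474). Ccnd3, encoding cyclin D3, was at 0.83, 0.87 and 0.79 in vehicle and 0.98, 0.93 and 1.07 with dexamethasone (0.16 ± 0.17, adjusted p = 0.75).

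**Figure D3:**
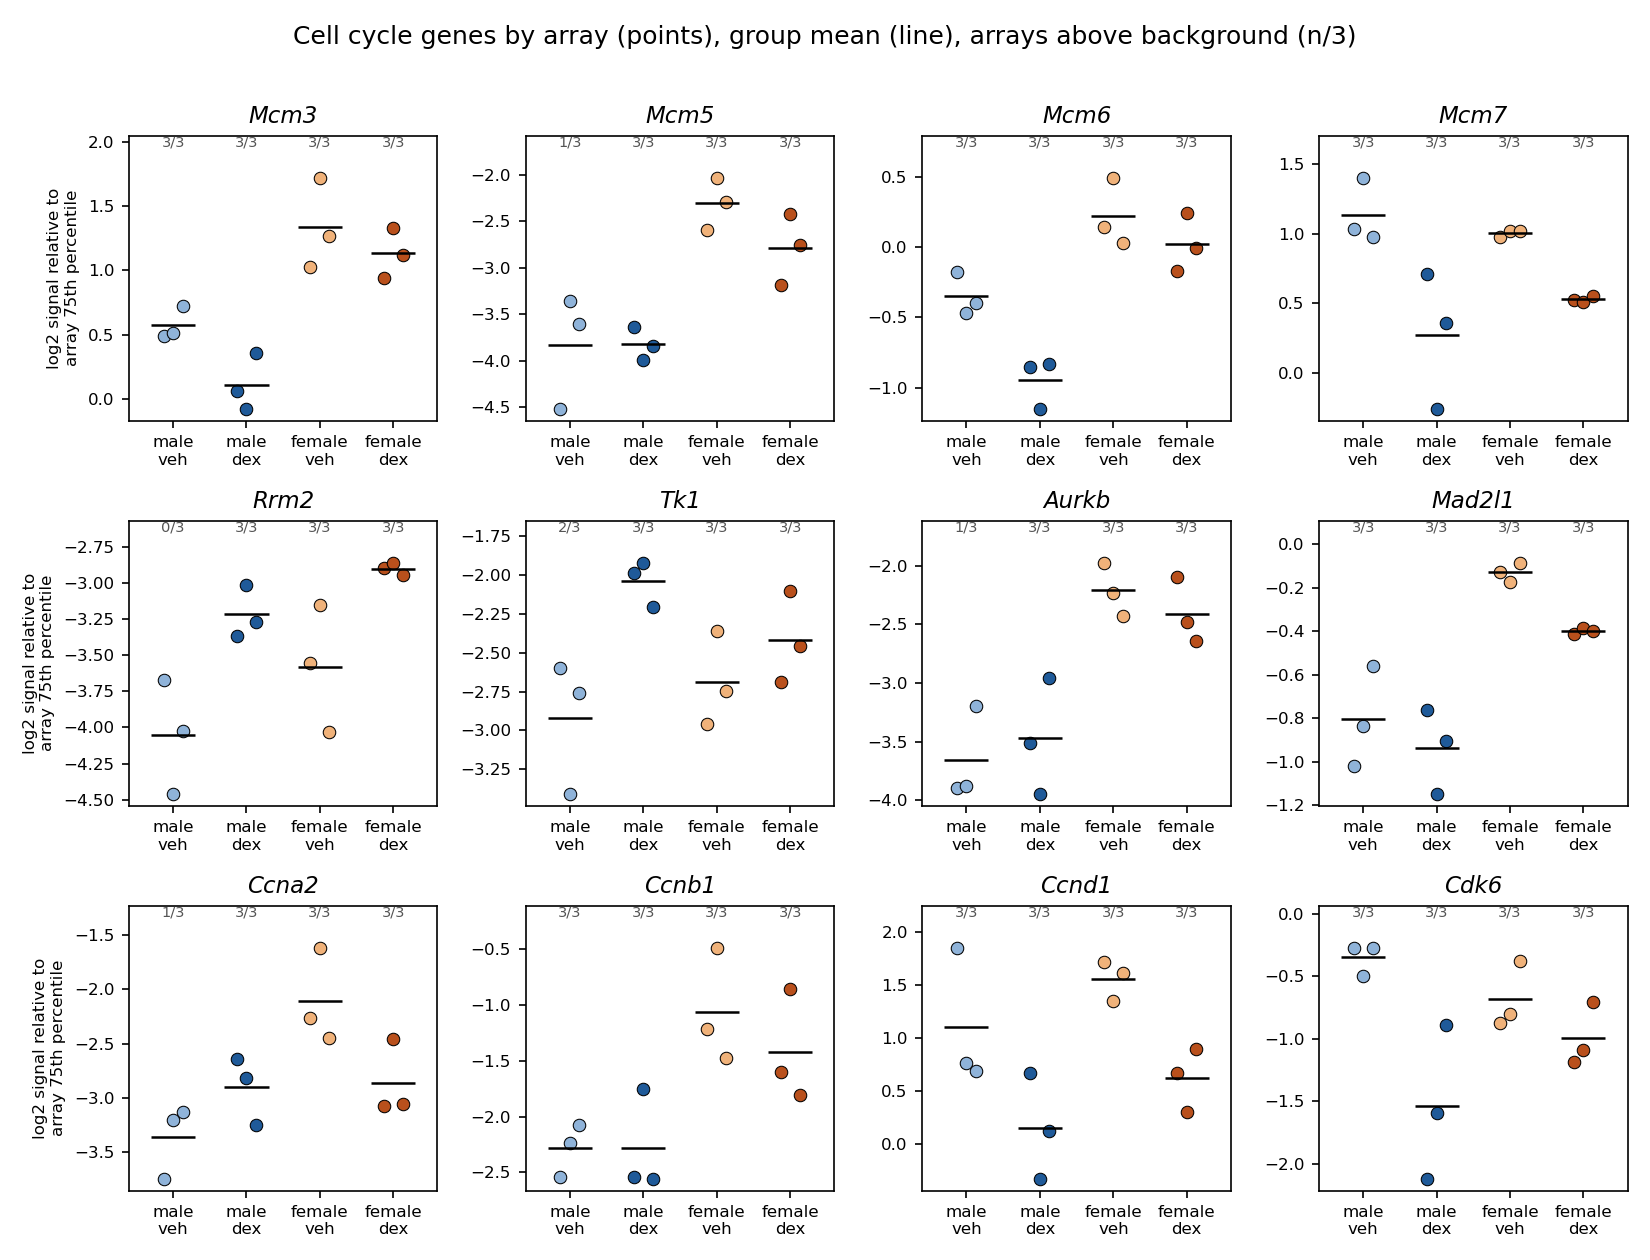
Log2 level relative to the array's 75th percentile (vertical axis) of 12 genes of the set on each array (points) of the 4 groups, with group means as lines and, above each group, how many of its 3 arrays were well above background. The Ccnd1 and Mcm7 points with dexamethasone lie below those of vehicle in both sexes, and Mcm3, Mcm5, Aurkb and Mad2l1 are higher on every female array than on any male array.

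Whether the response differed between the sexes was tested as an interaction, the female minus the male response. In this test 0 of 36 genes passed, where 0.106% of all genes did. Slide or the replicate number as a block also gave 0 (0.00754% and 0.0188% of all genes). Ccna2 was at -0.76 in females and 0.46 in males, a difference of -1.21 ± 0.39 (adjusted p = 0.228, 95% interval -2.08 to -0.34). Its male vehicle level was above background on 1 of 3 arrays. For Cdk6 the difference was 0.88 ± 0.40 (adjusted p = 0.416; interval -0.003 to 1.76), and for Tk1 -0.61 ± 0.35 (adjusted p = 0.553; interval -1.38 to 0.16). None of these 3 genes passed after adjustment, and their intervals leave room for differences of both small and large size. Over the set, the lowest difference was that of Ccna2 and the highest that of Cdk6, and the median was -0.01.

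The sexes were then compared within each treatment, as females minus males. In vehicle, 6 genes of the set were higher in females and 0 lower: the helicase genes Mcm3 and Mcm5, the mitotic kinase gene Aurkb, the checkpoint gene Mad2l1 and the cyclin genes Ccna2 and Ccnb1. They make up 16.7% of the set, against 13.8% of all genes called in either direction, 5.83% called higher and 7.94% called lower in females. The median difference of the set was 0.48, beside -0.06 over all genes, and 30 of 36 genes had higher means in females. Arrays did not overlap for 16 higher genes (44.4%, against 13.3% of all genes) and for 0 lower genes (17.9% of all genes). Of these 16, Mcm4, Mcm5, Aurkb, Bub1b, Ccna2 and Ccnb2 were not above background on every male vehicle array and passed the filter through other groups. Mcm5, Aurkb and Ccna2 are also among the 6 called. Of the 26 genes above background on all arrays 5 passed, all higher, where 19.3% of all such genes did (965 higher and 1917 lower). The plot of sex differences shows these values.

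**Figure D4:**
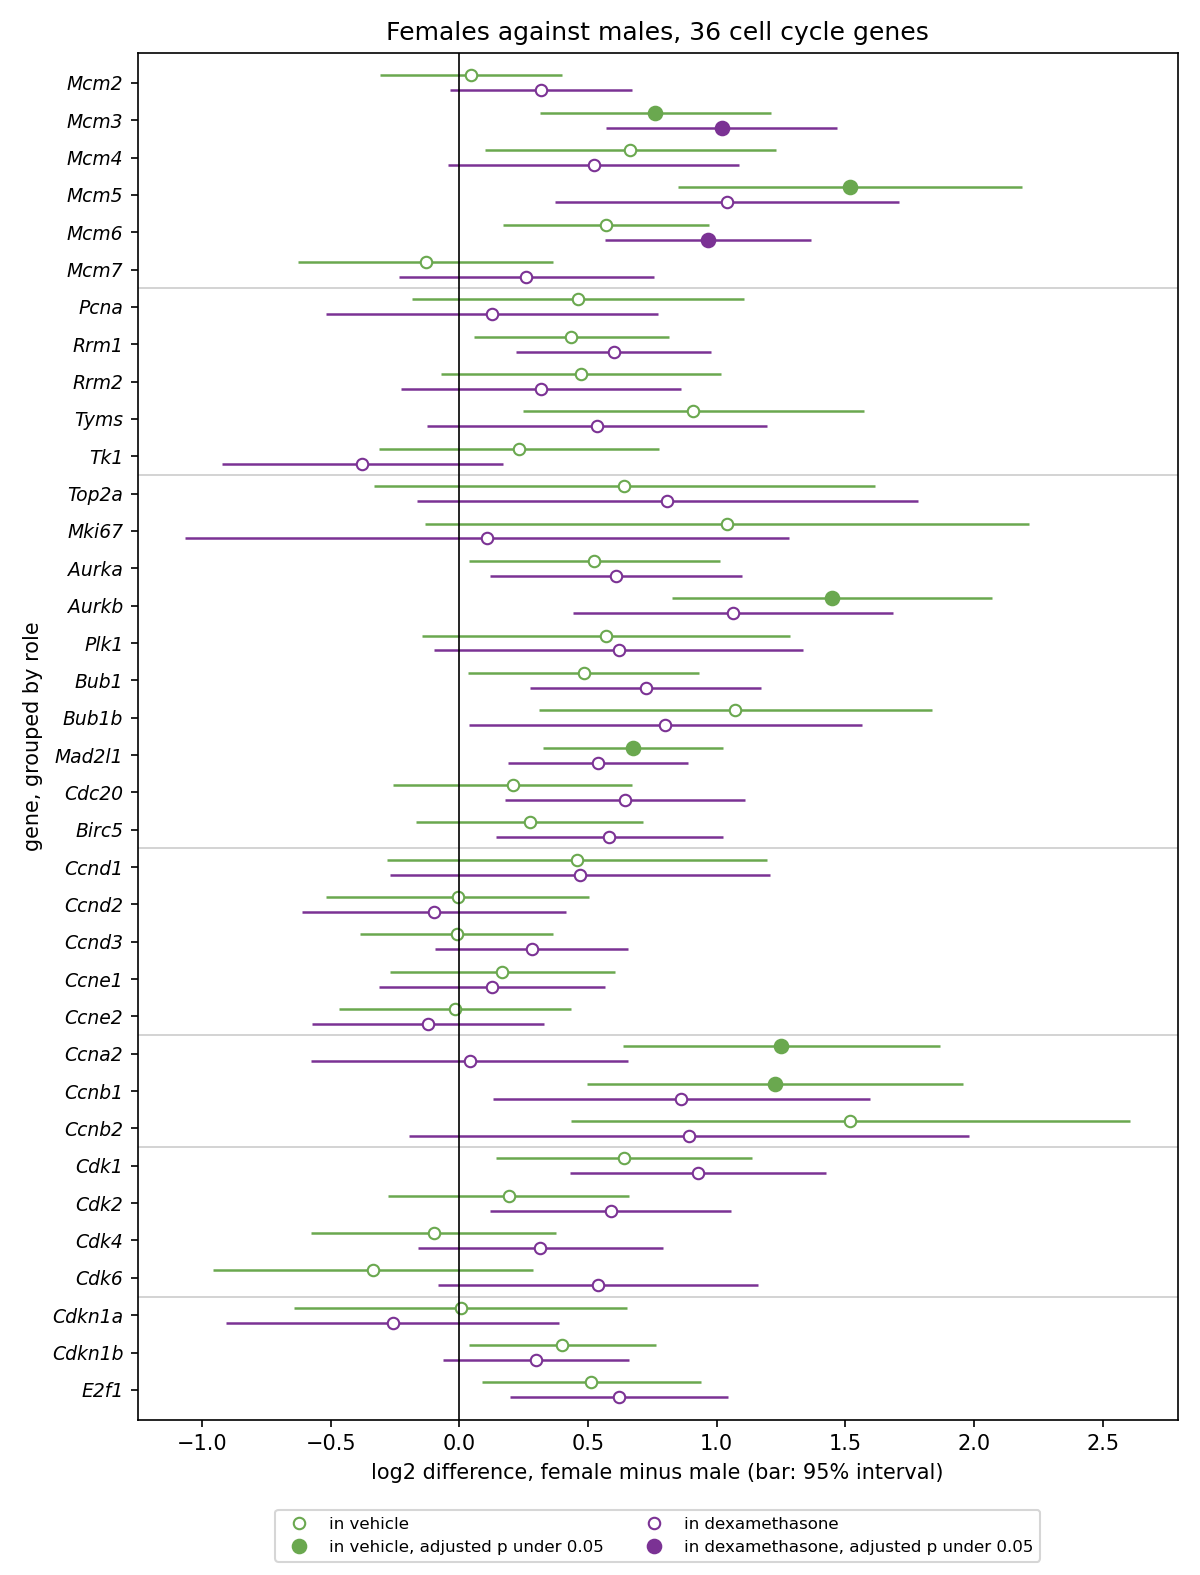
Log2 difference between females and males for each of the 36 genes (rows, by role) in vehicle (green) and in dexamethasone (purple), with 95% intervals of the limma fit; filled points passed an adjusted p of 0.05. Filled points, 6 in vehicle and 2 in dexamethasone, all lie to the right of 0, on the side of higher levels in females.

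Mcm5 was at -4.52, -3.35 and -3.60 in male vehicle, where 1 of 3 arrays was above background, and at -2.59, -2.03 and -2.29 in female vehicle. Every female array was higher, by 1.52 ± 0.30 (2.87-fold, adjusted p = 0.01). Mcm3 was at 0.49, 0.51 and 0.73 in males and 1.03, 1.72 and 1.27 in females (0.76 ± 0.20, adjusted p = 0.0334). It was measured on all arrays of both groups, and its second probe gave 0.73. Without female vehicle 2 the difference was 0.57 (adjusted p = 0.109), and the call was also lost without male vehicle 1 or 2, female vehicle 3 or female dexamethasone 3 (adjusted p 0.0531 to 0.0734). Mcm4 (0.66 ± 0.26) and Mcm6 (0.57 ± 0.18, adjusted p = 0.0615) did not overlap either, while Mcm2 (0.04 ± 0.16) and Mcm7 (-0.13 ± 0.22) did. A second probe of Mcm2, above background on all 12 arrays, gave 0.76. Of the DNA synthesis genes, Tyms (0.91 ± 0.30, adjusted p = 0.0678) and Rrm1 (0.44 ± 0.17) did not overlap and did not pass. Pcna (0.46 ± 0.29), Rrm2 (0.47 ± 0.25) and Tk1 (0.23 ± 0.25) overlapped.

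Aurkb is the kinase of the chromosomal passenger complex, which corrects faulty attachments of chromosomes to the spindle. It was at -3.90, -3.88 and -3.20 in male vehicle, above background on 1 of 3 arrays, and at -1.98, -2.23 and -2.43 in female vehicle. The groups were well apart (1.45 ± 0.28, 2.73-fold, adjusted p = 0.00916). Mad2l1, which holds back anaphase until chromosomes are attached, was at -1.02, -0.83 and -0.56 in males and -0.13, -0.17 and -0.09 in females (0.68 ± 0.16, 1.60-fold, adjusted p = 0.02). The female arrays were close together above all male arrays. The call was lost without any of the 3 female vehicle arrays (adjusted p 0.0519 to 0.0667), while those of Mcm5 and Aurkb were kept in each of the 12 fits that left out an array. The checkpoint genes Bub1b (1.07 ± 0.35, adjusted p = 0.0634) and Bub1 (0.48 ± 0.20, adjusted p = 0.139) and the kinase gene Aurka (0.52 ± 0.22, adjusted p = 0.14) did not overlap and did not pass. The same held for Cdk1 (0.64 ± 0.23, adjusted p = 0.0835) and E2f1 (0.51 ± 0.19, adjusted p = 0.101). Plk1 (0.57 ± 0.32), Top2a (0.64 ± 0.44), Birc5 (0.27 ± 0.20) and Cdc20 (0.21 ± 0.21) overlapped.

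Ccna2 was at -3.75, -3.20 and -3.13 in male vehicle, above background on 1 of 3 arrays, against -2.26, -1.62 and -2.45 in female vehicle (1.25 ± 0.28, 2.38-fold, adjusted p = 0.0164). Ccnb1 was at -2.54, -2.24 and -2.08 in males and -1.21, -0.48 and -1.47 in females (1.23 ± 0.33, 2.34-fold, adjusted p = 0.0347). Both cyclin genes were higher on each female array, most so on female vehicle 2. Without that array the values were 1.01 (adjusted p = 0.0558) for Ccna2 and 0.94 (adjusted p = 0.111) for Ccnb1, whose call was also lost without male vehicle 1 or 2 or female vehicle 1 (adjusted p 0.0661 to 0.0814). Ccnb2, encoding cyclin B2, was below background on all male vehicle arrays and at least 1.36-fold higher in females (adjusted p = 0.0647). Of the genes of G1 cyclins, Ccnd1 was at 0.46 ± 0.33 and the others nearer 0, with Ccnd2 at -0.01 ± 0.23, Ccnd3 at -0.01 ± 0.17, Ccne1 at 0.17 ± 0.20 and Ccne2 at -0.02 ± 0.20. Cdk6 (-0.34 ± 0.28) had the lowest difference of the set.

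Several technical and cellular measures moved with sex in vehicle. The male vehicle arrays all lie on slide 1, which held no female array, and 45.8% to 55.7% of their probes were well above background, against 74.8% to 78.1% in female vehicle. With slide as a block 0 of the 36 genes passed (0.494% of all genes), at values of 0.72 (Mcm3) to 1.81 (Ccna2) for the 6 genes and adjusted p of 0.152 to 0.461. The median of the set was then 0.68, with 32 of 36 genes above 0. Under normexp background correction 6 of the 36 genes passed, all higher, where 46.6% of all genes did (1527 higher and 10851 lower). There Mcm5 (0.44, adjusted p = 0.0982), Aurkb (0.36, 0.083), Ccna2 (0.46, 0.128) and Ccnb1 (0.63, 0.0658) did not pass. Mcm7 (0.58, 0.0123), Rrm1 (0.53, 0.0126), Ccnd3 (0.53, 0.0298) and Cdkn1b (0.50, 0.027) did. Of 10 measured stellate cell and fibroblast markers, 5 were higher in female vehicle and 0 lower, at a median of 1.70. Among them Lrat and Pdgfrb were below background on all male vehicle arrays and at least 6.45-fold and 4.89-fold higher in females. The summed signal of that list ran from 95.9 to 239 in male vehicle and from 209 to 264 in female vehicle. Of the other lists, the summed Kupffer cell signal was 50.0 to 103 in male and 52.9 to 105 in female vehicle, with 1 of 10 markers higher (Csf1r). The endothelial sum was 8.59 to 11.4 in male and 15.7 to 35.0 in female vehicle, with 1 marker higher and 1 lower among 8, and Pecam1, Stab2 and Emcn below background on all male vehicle arrays. The cholangiocyte sum was 3.39 to 13.7 and 14.2 to 27.7, with 1 marker higher and 1 lower among 8, and the lymphocyte sum 0.818 to 1.17 and 0.912 to 1.65. The hepatocyte sum was 1648 to 2006 in males and 1038 to 1394 in females, with 2 of 10 markers lower. Their part in the sex difference of the cell cycle genes was not tested.

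In dexamethasone, 2 genes of the set were higher in females and 0 lower, Mcm3 and Mcm6, 5.56% of the set against 2.89% of all genes called in either direction, 1.18% called higher and 1.71% called lower. The median of the set was 0.54, beside 0.02 over all genes, and 32 of 36 genes had higher means in females. Arrays did not overlap for 17 higher genes (47.2%, against 16.6% of all genes) and 0 lower genes (15.7% of all genes). No array is in both sex comparisons, but the fit estimates 1 spread for all 12.

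Mcm3 was at 0.06, -0.08 and 0.36 in male dexamethasone and at 0.94, 1.33 and 1.12 in female dexamethasone (1.02 ± 0.20, 2.03-fold, adjusted p = 0.0267). Mcm6 was at -0.85, -1.15 and -0.83 in males and -0.17, 0.24 and -0.01 in females (0.97 ± 0.18, 1.95-fold, adjusted p = 0.0202). For both genes the male and female arrays lay well apart. Both calls were lost without female dexamethasone 2 or 3 or male dexamethasone 2, and that of Mcm3 also without female dexamethasone 1 or male dexamethasone 1, that of Mcm6 without male dexamethasone 3 (adjusted p up to 0.126 and 0.102). Under normexp background correction Mcm6 was at 0.71 (adjusted p = 0.054). Mcm5 (1.04 ± 0.30, adjusted p = 0.0959), Aurkb (1.06 ± 0.28, adjusted p = 0.0727), Cdk1 (0.93 ± 0.23, adjusted p = 0.0551) and Bub1 (0.72 ± 0.20, adjusted p = 0.0865) did not overlap and missed the threshold. The remaining 11 genes without overlap were Mcm2 (0.32 ± 0.16), Rrm1 (0.60 ± 0.17), Rrm2 (0.32 ± 0.25), Tyms (0.54 ± 0.30), Aurka (0.61 ± 0.22), Mad2l1 (0.54 ± 0.16), Cdc20 (0.64 ± 0.21), Birc5 (0.58 ± 0.20), Cdk2 (0.59 ± 0.21), Cdkn1b (0.30 ± 0.16) and E2f1 (0.62 ± 0.19), and none of these passed. A second probe of Cdkn1b gave -0.73 in the other direction, and a second probe of Mcm2 gave 0.62. Both of these probes were above background on all 12 arrays. Plk1 (0.62 ± 0.32), Bub1b (0.80 ± 0.35), Ccnb1 (0.86 ± 0.33) and Ccnb2 (0.89 ± 0.49) overlapped.

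Ccna2 did not differ beyond its spread in dexamethasone (0.04 ± 0.28, interval -0.58 to 0.66), nor did Mki67 (0.11 ± 0.53, interval -1.07 to 1.28). The lowest differences of the set were those of Tk1 (-0.38 ± 0.25) and Cdkn1a (-0.26 ± 0.29). Same-numbered arrays of the sexes deviated together in dexamethasone, and with the replicate number as a block 6 genes passed, all higher in females, where 5.59% of all genes were called. They were Mcm3 (adjusted p = 0.0193), Mcm6 (0.0237), Top2a (0.0241), Bub1 (0.0176), Bub1b (0.0342) and Cdk1 (0.0275). With slide as a block 0 genes passed (0.0791% of all genes), and the median of the set was 0.85. Without the 4 arrays of slide 1, a setting added after the data had been seen, 5 genes passed, where 5.8% of all genes did. All were higher in females: Mcm6, Mcm5, Rrm1, Mad2l1 and Cdc20, the last encoding an activator of the anaphase-promoting complex. Mcm3 was at 0.99 (adjusted p = 0.0575) there. Stellate markers moved with sex here too: 2 of 10 were higher in females, Pdgfrb by 3.15 ± 0.28 and Lrat by 2.90 ± 0.39, and the summed signal was 127 to 221 in males and 175 to 244 in females. The endothelial sum was 5.25 to 7.93 in males and 9.25 to 21.1 in females, without overlap, at a median difference of 1.02 with 0 of 8 markers called. The lymphocyte sum was 0.768 to 1.00 and 1.01 to 1.44, with 1 of 6 markers higher. The hepatocyte, Kupffer cell and cholangiocyte sums overlapped, with 0 markers called. Their part was not tested.

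Other probes of the same genes could be set beside these values where each probe was above background on every array of both groups, since a probe below it has no measured direction. For the male response 9 genes had more than 1 such probe, and the signs were the same for 7, the exceptions being Mcm2 and Plk1. For the female response signs were the same for 11 of 17 genes (exceptions Mcm2, Rrm2, Ccne1, Ccne2, Cdkn1b and E2f1). For the sex difference they were the same for 7 of 9 genes in vehicle (exceptions Ccnd1 and Cdk4) and for 13 of 15 in dexamethasone (exceptions Cdkn1a and Cdkn1b). When all kept probes of a gene were averaged, 5 genes passed in males and 10 in the sexes in vehicle (9.78% and 13.4% of all genes). The 4 added in vehicle were Pcna (0.81, adjusted p = 0.0358), whose probes were all above background on all arrays of both groups, and Rrm1, Bub1b and E2f1, each with a probe below background on 2 or 3 of the male vehicle arrays.

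Other genes of the pathway were read from 7 lists, with 136 of 158 genes measured. In males 5 rose and 6 fell (8.09%, against 10.0% of all genes), and in females 3 rose and 0 fell (2.21%, against 4.13%). The medians were -0.19 and -0.20. Sesn1, a stress-inducible gene of the sestrin family, rose 6.47-fold in males (2.69 ± 0.30, adjusted p = 0.000989) and 6.80-fold in females (2.77 ± 0.30, adjusted p = 0.000939). The antiproliferative gene Btg2 rose in males (1.05 ± 0.19, adjusted p = 0.00873) and was at 0.49 ± 0.19 in females (adjusted p = 0.198).

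Of the 12 E2F, RB and MYC factors, 1 rose in each sex, Rbl2, which encodes the retinoblastoma-like protein p130 of resting cells (0.71 ± 0.18 in males, adjusted p = 0.034, and 0.79 ± 0.18 in females, adjusted p = 0.0376). Of 35 measured mitosis genes 0 rose and 1 fell in males, Foxm1, the factor that activates many G2 and mitotic genes (-0.77 ± 0.14, adjusted p = 0.00954), and 0 passed in females, where Foxm1 was at -0.45 ± 0.14 (adjusted p = 0.11). Of 27 DNA synthesis genes 1 fell in males, the polymerase delta subunit gene Pold3 (-0.76 ± 0.15, adjusted p = 0.0122), and of 12 checkpoint and repair genes 1 fell, Clspn, which relays replication stress to Chk1 (-1.09 ± 0.28, adjusted p = 0.0341). Neither passed in females, at -0.53 ± 0.15 and -1.09 ± 0.28 (adjusted p = 0.0767 and 0.0539). Of 22 other cyclins and regulators 2 fell in males, Ccng2 (-1.01 ± 0.29, adjusted p = 0.0487) and Pkmyt1, a kinase that inhibits Cdk1 (-0.59 ± 0.14, adjusted p = 0.0287). In females 1 of them rose, Skp2, of the ligase that degrades p27 (0.96 ± 0.20, adjusted p = 0.0247). Of 15 licensing and firing genes Mcm8, below background on all male vehicle arrays, was at least 1.08-fold higher with dexamethasone in males (adjusted p = 0.0434), and 0 passed in females. Called lower in males were 2.86% of the mitosis, 3.70% of the DNA synthesis, 8.33% of the checkpoint and 9.09% of the cyclin list, against 4.85% of all genes. Called higher in males were 8.33% of the E2F and 6.67% of the licensing list, against 5.19% of all genes. Each of these shares stands for 1 or 2 genes.

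Between the sexes in vehicle, 19 of the 136 genes were higher in females and 1 was lower (14.7%, against 13.8% of all genes), at a median of 0.29. The higher genes were 14.0%, against 5.83% of all genes, and the lower 0.735%, against 7.94%. Of the 35 mitosis genes 9 were higher (25.7%, against 5.83% of all genes) and 0 lower (7.94% of all genes). The microtubule-associated gene Ckap2 (1.79 ± 0.19, adjusted p = 0.000564) and the separase gene Espl1 (1.70 ± 0.29, adjusted p = 0.00513) were among these 9, and are named after their values had been seen. The single lower gene was Myc (-0.77 ± 0.18, adjusted p = 0.0217). In dexamethasone 6 of the 136 were higher (4.41%, against 1.18% of all genes) and 1 was lower (0.735%, against 1.71%). The lower gene was again Myc (-0.79 ± 0.18, adjusted p = 0.0478). Both directions make 5.15%, against 2.89% of all genes. In the test of the difference of responses 0 of the 136 passed, where 0.106% of all genes did.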

How the data were processed

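Total RNA of 12 samples was hybridised to Agilent 1-colour arrays, scanned and extracted with Agilent Feature Extraction 9.5, per the submitters' processing notes (9.5.3.1 per the file headers). The deposited processed intensity of each spot was used, and 540216 of 540216 values of the deposited value table equalled it (relative tolerance 1e-06). Control spots were left out and spots of a probe averaged. Levels are log2 of the deposited intensity minus the array's 75th percentile. A probe was kept (30979 were) if some group had it well above background on every array, and each of the 26535 genes was read by 1 probe, the one with the highest mean signal. Probe positions are those of the files (rn3).

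Group means were fitted to all 12 arrays with limma 3.58.1 in R 4.3.3 (lmFit, contrasts.fit, eBayes), two-sided, with Benjamini-Hochberg adjustment over all genes and a threshold of 0.05. The script was tested on simulated data. The number of arrays limits the precision. Genes of the set were given by array where they passed in a comparison or did not overlap between the groups of a response, and otherwise as differences or within the range of the set. Of the other pathway lists, up to 2 of the largest rises and falls that passed in each response were named. The values of 1 gene and 1 list are not reported here. The set and lists were chosen with earlier results of these data known.

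Replicate numbers come from the sample titles. Deviations of same-numbered arrays correlated at 0.27, 0.46 and 0.27 in the male response, 0.42, 0.26 and 0.34 in the female response and 0.17, 0.17 and 0.20 between the sexes in dexamethasone, so the numbers were taken to pair these arrays. Alternatives were other normalizations, normexp background correction with an offset of 50, other filters on dim probes, slide or replicate blocks, array weights, the mean of probes, the compared groups alone and leaving out each array.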

Additional observations from a re-analysis of the deposited data

How the results depend on the processing

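None of the differences of the set that passed (3 in males, 6 between the sexes in vehicle and 2 in dexamethasone) turned its direction under an alternative run. Others did: between the sexes in vehicle Mcm7 and Ccnd3, at -0.13 and -0.01, were called at 0.58 and 0.53 under normexp. The median female response of the set was -0.20, and 0.01 with slide as a block, on female vehicle 3 alone. Counts are genes of the set that passed, with 3 in the male response, 0 in the female response and 0 for the difference of responses. Between the sexes there were 6 in vehicle and 2 in dexamethasone. For the difference of responses the count was 0 under every alternative run. The share of all genes called in these runs went from 0% (with normexp among others) to 18.8% (no filter on dim probes). With slide as a block the counts were 0 (vehicle) and 0 (dexamethasone), where 0.494% and 0.0791% of all genes were called. The male and female responses of that fit rest on 1 array of a group. Within 1 slide these responses have the same values and the same limit. The replicate block gave 5 in males, 12 in vehicle and 6 in dexamethasone (12.7%, 17.9% and 5.59% of all genes), and changed no other count. In vehicle the same-numbered arrays correlated at 0.11, 0.02 and 0.04 and only share a number. Array quality weights gave 0, 3, 3 and 13 in the male, female, vehicle and dexamethasone comparisons. The shares of all genes called were 3.46%, 19.7%, 8.49% and 14.6%. The fit to only the groups compared gave 0 in males, 3 in females and 1 in vehicle (0.916%, 10.1% and 2.98% of all genes). With no filter on dim probes the counts were 6 (male) and 10 (vehicle), where 31.3% and 35.2% of all genes were called. With the mean of a gene's probes they were 5 (male) and 10 (vehicle), against 9.78% and 13.4% of all genes. Normexp background correction gave 1 in dexamethasone (3.51% of all genes). Among alternatives chosen after seeing the data, the replicate block within each sex gave 8 in males and 1 in females (15.7% and 6.74% of all genes). Leaving out the 4 arrays of slide 1 gave 1 in females and 5 in dexamethasone (9.11% and 5.8% of all genes). In males the balance also changed from 1 rise and 2 falls. With median centring, with normexp or over genes above background on all arrays it was 0 and 4 (12%, 15% and 13.9% of all genes called). With the replicate block it was 0 and 5, with that block within each sex 2 and 6, and without male vehicle 1 it was 4 and 0 (12.7%, 15.7% and 9.02%). Leaving out each array gave 0 to 4 in males (0 without male dexamethasone 2) and 0 to 0 in females. Of all genes, 4.41% to 13.3% and 1.17% to 5.51% were called there. In vehicle it gave 2 to 7 (2 without female vehicle 2), where 6.24% to 16.7% of all genes were called. In dexamethasone it gave 0 to 3, where 0.584% to 4.21% of all genes were called. The count there was 0 without male dexamethasone 2, female dexamethasone 2 or female dexamethasone 3 (1.58%, 0.584% and 0.969% of all genes). The cause of these changes was not tested.

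The scaling moved the array as a whole. In the order of the 75th percentile, quantile normalization, median centring and normexp, the median male response of all genes was -0.07, 0.04, -0.19 and -0.25, while that of the set was -0.17, -0.19, -0.29 and -0.34. For the sexes in vehicle these medians were -0.06, 0.09, -0.09 and -0.38 for all genes and 0.48, 0.47, 0.44 and 0.30 for the set. Of all genes called, 51.7%, 66.8%, 31.9% and 22.9% were higher in the male response, 72.7%, 66.7%, 61.9% and 69.7% in the female response, 42.3%, 62.8%, 38.3% and 12.3% between the sexes in vehicle, and 40.8%, 37.2%, 41.7% and 24.3% in dexamethasone. Signal over background limits Rrm2 and Ccnb2, below background on all male vehicle arrays, and the 8 genes measured there on 1 or 2 arrays.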

Other observations

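Replicate 2 of the female groups stood out within the set. It was the highest of the 3 arrays for 27 of 36 genes in female vehicle and for 23 of 36 in female dexamethasone, against 41.5% and 26.0% of all genes. For 21 of 36 genes it was the highest in both groups, against 16.4% of all genes, and these included the mitotic genes Top2a, Mki67, Plk1, Bub1, Bub1b and Aurka and the cyclin genes Ccna2, Ccnb1 and Ccnb2. In males, replicate 1 was the highest in both groups for 11 of 36 genes (19.3% of all genes), among them Ccnd1, Ccnd2, Cdk2 and Cdk4. Male replicate 2 was the highest in both for 5 of 36 genes, a share slightly below that of all genes (15.3%). They were Bub1, Bub1b, Mki67, Plk1 and Top2a. The counts were made after the values had been seen, and no test was run.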
